A study of Mesocricetus auratus with 36 samples.

Results

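The genes described here had their lowest level in torpor, below that of each other stage of the hibernation season. They number 206 of the 32340 genes counted (0.637%), or 1.57% of the 13084 genes with a median of at least 2 CPM (a gene's share of its library's counts, scaled to 1e6) in each of the 5 groups other than torpor. A gene was taken when its median CPM was at least 2 in each of those 5 groups and at least 1.5 times its torpid median in each. The genes were chosen by their torpid and other group medians, and every torpor value below is a description without a test. The limit of 300 genes was not reached.

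RNA came from the ependymal strip of the hypothalamus, a laser-captured region enriched for tanycytes. The 36 donors were male golden hamsters (Mesocricetus auratus), 6 in each group. SP torpid animals (6 months old) were on short photoperiod, with 10 h of light at 8 °C, for 8 to 12 weeks, and were killed 13 h into torpor after 3 torpor and arousal cycles. LP animals (long photoperiod, 8 months old by the labels) had 14 h of light at 22 °C. SP pre-hib animals (4 months old) had 4 weeks of short days and cold. SP late pre-hib animals (6 months old) had 8 to 12 weeks of it without any torpor. IBE animals (6 months old) had the same housing as the torpid group and were in interbout euthermia, the rewarmed state between bouts, for 23 h. SP refractory animals (8 months old) had stopped hibernating at about 20 weeks of short days with a last bout 2 weeks or more before sampling. All animals carried a temperature logger in the abdomen. Some LP animals were taken before the change of photoperiod and others at the end, so their ages are uncertain. Photoperiod and temperature differ together between LP and the other groups and cannot be told apart, and labelled age differs with them for all groups but SP refractory. Torpor itself differs from IBE also in body temperature and in hours since the last change of state.

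Torpor is a regulated fall of metabolism and body temperature that a hibernator enters and leaves in repeated bouts. Tanycytes are glia that line the floor of the third ventricle, contact the cerebrospinal fluid and take part in nutrient sensing and in the seasonal control of thyroid hormone. Levels of messenger RNA reflect both synthesis and decay, which a count at 1 moment does not separate.

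The libraries held 5.16 to 28.5 M counts (M, 1e6). Ribosomal RNA genes took under 1% of the counts in 33 libraries and over 5% in SP refractory 4, SP pre-hib 5 and IBE 6. Those 3 libraries stood apart, and values given as elsewhere are over the remaining 27 libraries outside torpor unless all 30 are named, a choice made after seeing the data. Summed CPM of 18 motile cilia markers of ependymal cells was 4050 to 5431 in torpid libraries (median 4479) and had medians of 4109 to 5235 in the other groups. The 19 tanycyte markers summed to 2516 to 4644 CPM in torpid libraries (median 3460). Their medians in the other groups were 4621 CPM in LP, 3868 in SP pre-hib, 3522 in SP late pre-hib, 3946 in IBE and 3311 in SP refractory. None of the neuron, oligodendrocyte, astrocyte, microglial, endothelial, mural or pituitary markers was among the 206 genes. Past the floor these lists held only 15, 5, 10, 13, 6, 4 and 4 genes, in that order. The set is 1.57% of genes past the floor, so nothing is read from zeros in lists this short. In such bulk samples, fewer cells of a type and less RNA per cell cannot be told apart.

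The 206 genes were low together in each torpid animal. Against each gene's median over the 30 other libraries, the median log2 difference over the 206 genes was between -0.98 and -0.81 in the 6 torpid libraries. In the other groups it was -0.04 to 0.06 in LP, -0.08 to 0.05 in SP pre-hib, -0.08 to 0.04 in SP late pre-hib, -0.10 to 0.03 in IBE and -0.41 to 0.12 in SP refractory libraries. The lowest of those, -0.41, was SP refractory 4. The 13084 genes past the 2 CPM floor had a median of -0.04 to -0.01 in torpid libraries.

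**Figure D1:**
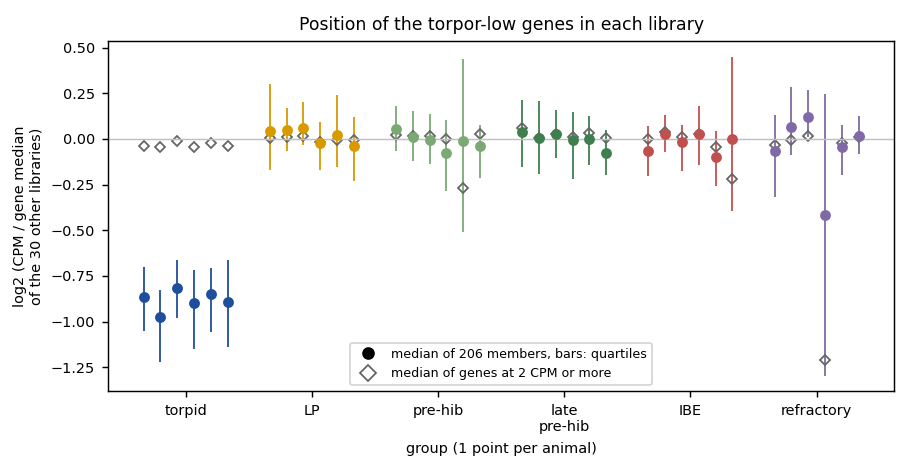
Each filled point is the median, over the 206 torpor-low genes, of log2 CPM relative to the gene's median in the 30 other libraries, with bars to the quartiles; open diamonds give the same median over all 13084 genes past 2 CPM. The torpid libraries sit between -0.98 and -0.81, apart from every other library, and the next lowest is SP refractory 4 at -0.41.

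At its torpid median the typical gene kept 54.4% of its median in the 30 other libraries (quartiles 49.1% and 57.8%, range 7.90% to 64.5%), where a gene past the floor kept 98.4%. The ratio of the next lowest group to torpor had a median of 1.65 and a highest value of 3.17. It was 2 or more in 18 genes, 1.75 to 2 in 44 and 1.5 to 1.75 in 144. All 6 torpid libraries lay below all 30 others for 43 of the 206 genes (20.9%), against 0.566% of all genes past the floor, and below the 27 others for 103 genes (50%), against 1.85%. The same contrast chose the genes, so nothing is read from these shares. Under the same thresholds 210 genes (1.61%) were lowest in torpor and 88 were highest there. For the other groups the counts of lowest genes were 48 in LP, 4 in SP pre-hib, 2 in SP late pre-hib, 31 in IBE and 52 in SP refractory.

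Of the 210 genes, 4 were set aside beforehand, namely Cry1 (ratio 1.82), Arrdc3 (2.58), Rsrp1 (3.57) and Kcnj2 (2.54). Dlx5 was also set aside and did not meet the rule, because its SP pre-hib median was 1.75 CPM. Just inside the threshold lay Tti2, Traf4 and Pik3c2b, with ratios of 1.5001, 1.5003 and 1.5005. Just outside lay Chsy3 (1.4985) and Stard4 (1.4968), so the edge of the set cuts through a continuous range.

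Most of the genes were low or moderate in level. Their median was 7.02 CPM in torpor and 12.6 CPM in the 30 other libraries, where genes past the floor had 29.3 CPM. Per kilobase of exon the median level was 1.74 CPM in torpor and 3.30 CPM in the 30 other libraries, against 9.02 CPM for genes past the floor. When genes past the floor were split into 4 classes of equal size by level, the set made up 2.78% of the lowest class, 2.51% of the next, 0.856% of the one above and 0.153% of the highest. Only 23 genes had a torpid median of 20 CPM or more, and 20 were under 2 CPM. The smallest count of any of them in a torpid library was 9 and the median count was 154, so 7 genes with under 20 counts in a torpid library carry sizeable counting error.

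The largest ratio belonged to a gene of protein turnover. Grouping by role was done after the members were known, and 18 genes act in the ubiquitin, SUMO or NEDD8 pathways, with a median of 55.9% left in torpor. Kctd21, which encodes a BTB-domain adaptor that brings substrates to cullin ubiquitin ligases, had 2.42, 2.00, 3.23, 2.20, 2.86 and 2.04 CPM in the 6 torpid libraries, against 5.89 to 10.96 CPM (median 8.87) in the 27 others. Those ranges did not overlap, and SP refractory 4 alone, at 0.969 CPM, was lower still. Yod1, a deubiquitinase that works with the p97 segregase at the endoplasmic reticulum, had 2.99, 1.43, 1.68, 2.06, 2.86 and 1.78 CPM in torpor, against 3.96 to 7.94 CPM (median 5.69) elsewhere. Kbtbd8, another cullin adaptor with a BTB domain, ranged from 1.14 to 2.11 CPM in torpor (median 1.54), against 2.14 to 5.00 CPM (median 3.84) elsewhere, with no overlap. The BTB-domain genes Btbd7 and Klhl28 had torpid medians of 7.65 and 4.37 CPM, against medians of 13.6 and 7.79 CPM elsewhere. Fbxo33, an F-box substrate receptor, had 4.45 CPM in torpor against 9.51 CPM elsewhere. Socs6, a receptor-proximal suppressor of cytokine signalling, ranged from 10.4 to 15.2 CPM in torpor against 13.5 to 25.9 CPM elsewhere, and torpid 3 lay inside the range of the others. In lists drawn up by gene symbol, 4 of 58 BTB-domain genes past the floor (6.90%) and 8 of 197 ubiquitin ligase genes (4.06%) were in the set. Of 52 deubiquitinase genes with Usp or Otud symbols 0 were, but that list leaves out the deubiquitinase gene Yod1, a member.

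**Figure D2:**
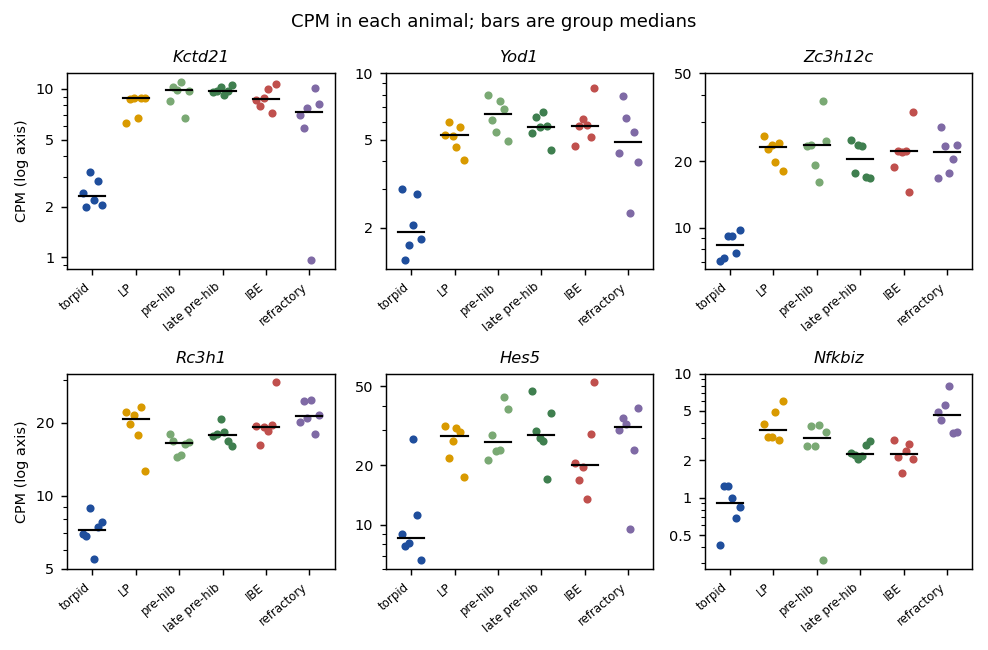
CPM of 6 torpor-low genes in every animal on a log axis, torpid animals at the left, with group medians as bars. Torpid animals are lowest for Kctd21, Yod1, Zc3h12c and Rc3h1 apart from SP refractory 4 in Kctd21 and Yod1, torpid 4 is high for Hes5, and SP pre-hib 5 is low for Nfkbiz.

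Genes whose products shorten the life of messenger RNA, or process small RNA, formed a group of 12 with a median of 54.7% left. For 9 of the 12 all torpid libraries lay below the 27 others, a description by the contrast that chose the genes (50% of the whole set and 1.85% of genes past the floor). Zc3h12c, an endonuclease of the Regnase family, had 7.11, 7.34, 9.21, 9.15, 7.65 and 9.73 CPM in torpor, against 14.5 to 28.6 CPM (median 22.4) elsewhere. Rc3h1 encodes Roquin, which binds stem-loops in messenger RNAs of immune regulators and recruits deadenylases. It had 6.96, 6.86, 8.95, 5.52, 7.47 and 7.84 CPM in torpor, against 12.6 to 24.6 CPM (median 18.3) elsewhere. Both were below all 30 other libraries. Mex3c, an RNA-binding ubiquitin ligase, ranged from 5.24 to 8.16 CPM in torpor (median 6.28), against 9.18 to 18.2 CPM (median 12.2) elsewhere. Zc3h12b, a further Regnase gene, was near the edge of the set, with a torpid median of 7.02 CPM against 12.1 CPM elsewhere and 1 torpid library, torpid 3, at 10.9 CPM. Tut4, which adds uridines to RNA tails, had a torpid median of 17.5 CPM and a median of 28.8 CPM in the 30 others, and Dicer1, which cuts microRNA precursors, had 6.79 CPM in torpor and 11.6 CPM in the others. The list of messenger RNA decay and deadenylation genes had 3 of its 80 genes past the floor in the set (3.75%), and its median gene kept 91.3% in torpor.

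Transcription factors made up 28 of the genes, 17 of them with zinc fingers. The zinc finger genes had a median of 51.7% left, and the list of zinc finger families had 13 of 214 genes past the floor in the set (6.07%), with a list median of 88.3% left. Znf629 ranged from 5.48 to 11.9 CPM in torpor (median 9.61), against 14.7 to 23.2 CPM (median 19.8) elsewhere. Znf280c ranged from 1.73 to 2.72 CPM, against 2.84 to 5.71 CPM elsewhere. Neither overlapped the other groups. Znf526 had torpid values from 0.858 to 2.51 CPM, against 1.98 to 4.11 CPM elsewhere, and torpid 4 lay inside the range of the others. Znf691 had a torpid median of 18.5 CPM against 35.9 CPM elsewhere. Rbak, a zinc finger repressor that binds the retinoblastoma protein, had a torpid median of 4.80 CPM against 9.86 CPM elsewhere.

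Among the other 11 transcription factors, Hes5 differed most between torpid animals. Hes5 is a basic helix-loop-helix repressor switched on by Notch in neural stem cells and glia. It had 9.03, 7.82, 8.14, 27.3, 11.3 and 6.64 CPM in torpor, against 13.6 to 47.2 CPM (median 27.4) elsewhere. Torpid 4 was close to the median of the other groups, and the remaining 5 torpid libraries lay below all 27. Maml1, a Notch coactivator, was the other of 2 Notch pathway genes of 22 past the floor. Mlx, the partner of the glucose-responsive Mondo factors, ranged from 12.7 to 16.8 CPM in torpor (median 15.5), against 25.2 to 35.6 CPM (median 32.0) elsewhere. Homez, a homeobox gene, had a torpid median of 8.92 CPM against 17.8 CPM elsewhere, and Cebpg, a dimer partner of C/EBP factors, 21.6 CPM against 38.5 CPM elsewhere, both without overlap. Sox11, a factor of neural progenitors, ranged from 1.08 to 2.00 CPM in torpor, against 1.70 to 4.39 CPM elsewhere, and overlapped.

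Rax, a homeobox gene that marks tanycytes, was the only tanycyte marker of 18 past the floor in the set, with a ratio of 1.54. It had 79.8, 106, 89.0, 44.3, 45.3 and 25.7 CPM in torpor, against 59.9 to 208 CPM (median 142) elsewhere. Torpid animals spanned a wide range, and 3 of the 6 lay inside that of the others. Group medians were 131 CPM in LP, 151 CPM in SP pre-hib, 162 CPM in SP late pre-hib, 96.2 CPM in IBE and 108 CPM in SP refractory animals. The difference of IBE minus SP late pre-hib did not pass (log2 fold change of Rax -0.56 ± 0.30, SE; edgeR adjusted p = 0.848).

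The 6 genes of chromatin regulators kept a median of 48.9%. In 5 of the 6 all torpid libraries were below the 27 others, by the contrast that chose them (50% of the whole set and 1.85% of genes past the floor). Kmt2b and Setd1b encode methyltransferases that mark active promoters on histone H3. Kmt2b ranged from 2.25 to 3.40 CPM in torpor (median 3.17), against 4.63 to 9.83 CPM (median 6.62) elsewhere. Setd1b ranged from 8.14 to 12.7 CPM, against 13.9 to 24.7 CPM elsewhere. Both were highest in the libraries rich in ribosomal RNA. Ing5, a reader of such marks in acetyltransferase complexes, had a torpid median of 9.94 CPM against 20.7 CPM elsewhere. Kdm7a, a histone demethylase, had 3.95 CPM in torpor against 7.77 CPM elsewhere. Mllt1, an acetyl-lysine reader of the elongation machinery, was among the 5 named genes with the highest torpid level, at 52.5 to 72.0 CPM (median 58.5), against 87.3 to 133 CPM (median 106) elsewhere. The list of chromatin regulators had 5 of 157 genes past the floor in the set (3.18%), which does not include Mllt1.

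Signalling genes were led by Nfkbiz, an inducible nuclear cofactor of NF-kappa B. It had 0.416, 1.24, 1.25, 0.987, 0.692 and 0.837 CPM in torpor, against 1.58 to 5.99 CPM (median 2.93) elsewhere, with no overlap. The low library of SP pre-hib 5, at 0.314 CPM, is outside the 27. Map3k13, a kinase upstream of JNK, ranged from 1.35 to 3.14 CPM in torpor (median 2.17), against 2.98 to 7.90 CPM (median 4.80) elsewhere. Lifr, a receptor chain for cytokines of the interleukin-6 family, had a torpid median of 13.1 CPM and a median of 24.6 CPM in the 30 others, and was below all of them. Irs1, an adaptor of the insulin receptor, had 8.60 CPM in torpor and 15.0 CPM in the others. Rgs2, which shortens G protein signals, had 24.5 CPM in torpor and 52.1 CPM in the others. Fzd5, a Wnt receptor, varied widely, at 23.1 to 77.5 CPM in torpor against 22.0 to 131 CPM elsewhere, and no torpid library was below all 27. Mak, a kinase of cilia, ranged from 32.6 to 45.3 CPM in torpor (median 37.4), against 44.0 to 96.2 CPM (median 65.3) elsewhere.

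Several genes of metabolism and basic cell functions were also in the set. Eif5, the GTPase activator of translation initiation, had the highest torpid level of all members at a median of 196 CPM. It averaged 199 ± 15.8 CPM in torpor (SD, n = 6), against 345 to 419 CPM (median 379) in the 27 others. Rpia, an isomerase of the pentose phosphate pathway, ranged from 1.06 to 2.35 CPM in torpor (median 1.17), against 1.96 to 4.64 CPM (median 3.64) elsewhere, with 2 torpid libraries inside that range. Gdpgp1, a phosphorylase that removes GDP-glucose, had a torpid median of 4.34 CPM against 8.84 CPM elsewhere. Ankrd37, a hypoxia-inducible ankyrin-repeat gene, ranged from 5.44 to 7.94 CPM in torpor (median 7.40), against 15.0 to 25.8 CPM (median 18.4) elsewhere. Cep43, a centriolar protein gene, ranged from 6.69 to 16.4 CPM in torpor (median 13.2), against 22.4 to 49.1 CPM (median 35.7) elsewhere. Ccnyl1, a cyclin Y relative, had a torpid median of 2.12 CPM against 4.83 CPM elsewhere, Gpatch3 had 7.65 CPM against 14.9 CPM elsewhere, and Ccdc174 had 14.6 CPM against 25.8 CPM elsewhere. Kif21b, a kinesin, had 6.74 CPM against 13.1 CPM elsewhere.

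Of solute carriers, 3 of 229 genes past the floor were in the set (1.31%). Slc38a6, of an amino acid transporter family, ranged from 3.24 to 5.77 CPM in torpor against 6.59 to 12.9 CPM elsewhere. Slc25a13, the mitochondrial aspartate and glutamate carrier citrin, had torpid values of 1.15 to 2.86 CPM against 1.43 to 5.68 CPM elsewhere, and Slc26a9, an anion transporter, 0.524 to 2.15 CPM against 1.27 to 5.83 CPM elsewhere. Both of these overlapped.

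**Figure D3:**
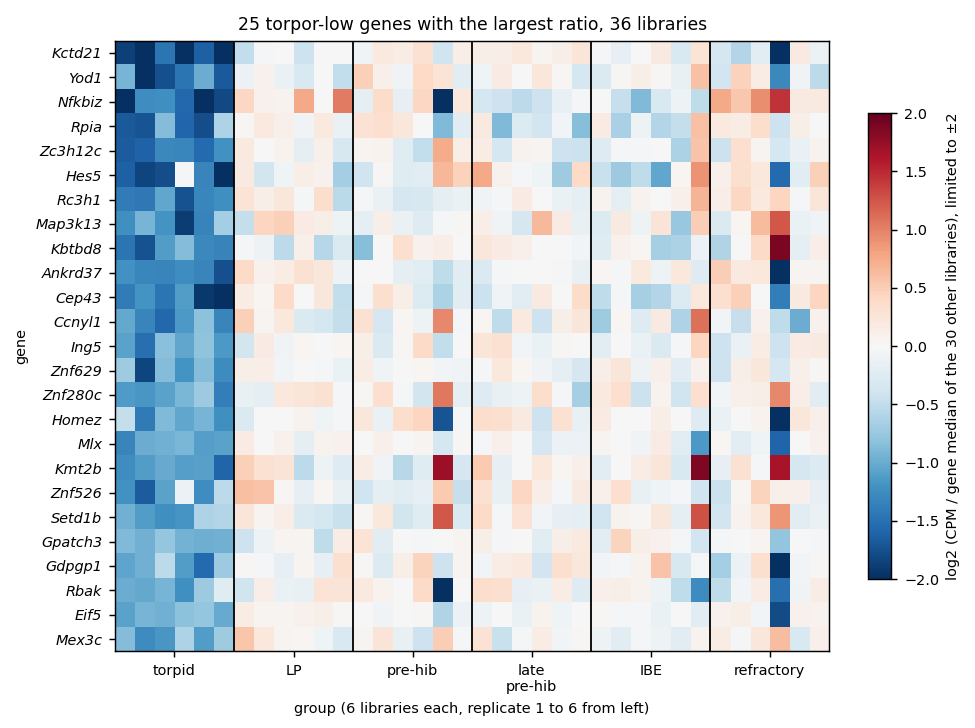
Colour gives log2 CPM relative to the gene's median in the 30 other libraries (limited to ±2) for the 25 named genes with the largest ratio, 1 column per library with torpid libraries at the left. The torpid columns are blue for nearly every gene, palest in torpid 4 for Hes5 and Znf526, and SP refractory 4, SP pre-hib 5 and IBE 6 show strong colours in both directions.

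Several function lists held no members, of which some are given here. The set is 1.57% of genes past the floor, so nothing is read from these zeros. Of the lists examined, 0 of 80 heat shock and chaperone genes past the floor were in the set, 0 of 161 splicing genes, 0 of 80 ribosomal protein genes, 0 of 69 nuclear oxidative phosphorylation genes, 0 of 86 DNA repair and replication genes and 0 of 21 immediate early genes. The median gene of these lists kept 99.2% (splicing) to 119% (immediate early) in torpor. Of 23 clock genes 0 were members, with Cry1 set aside. Centrosome and cilium genes gave 3 of 230 (1.30%), and the set as a whole is 1.57% of genes past the floor.

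The remaining members divide as follows. In all, 109 genes fell into one of 10 role groups, 57 had an informative name but no role group, and 40 had only a LOC or placeholder name. The 57 kept 24.4% to 64.5% in torpor (median 55.9%), and the 40 unnamed genes kept 7.90% to 64.1% (median 50.8%). Of the 18 genes with a ratio of 2 or more, 7 were LOC genes. Further role groups were 13 protein kinases and phosphatases (median 55.2% left), 8 regulators of small G proteins (55.9%), 11 receptors, channels and transporters (55.9%) and 9 cell cycle and cell death genes (56.4%). By biotype 202 members were protein-coding and 4 were long non-coding RNAs.

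The torpor-low genes had longer exon sequence in fewer exons than genes past the floor. Their summed exon length had a median of 4026.5 bases (quartiles 2332 and 6142), against 2956.5 bases (1806 and 4702) for genes past the floor, and 37.9% exceeded 5000 bases, against 22.1%. The median number of merged exons was 6 for members and 10 for genes past the floor, and the median of exon bases per exon was 540 for members and 274 for genes past the floor. The span of the gene on the genome differed less, at 20626.5 bases for members and 22618 for genes past the floor. Long genes with few exons were represented most: 61 of 1187 genes at or above the median length with 6 exons or fewer were members (5.14%), against 1.49% of long genes with 7 exons or more and 1.53% of short genes with 6 or fewer. Shorter genes with 7 exons or more gave 0.518%. Examples with 2 exons are Yod1 (6096 bases), Irs1 (8801 bases), Bcl2 (7261 bases) and Fzd5 (6783 bases).

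**Figure D4:**
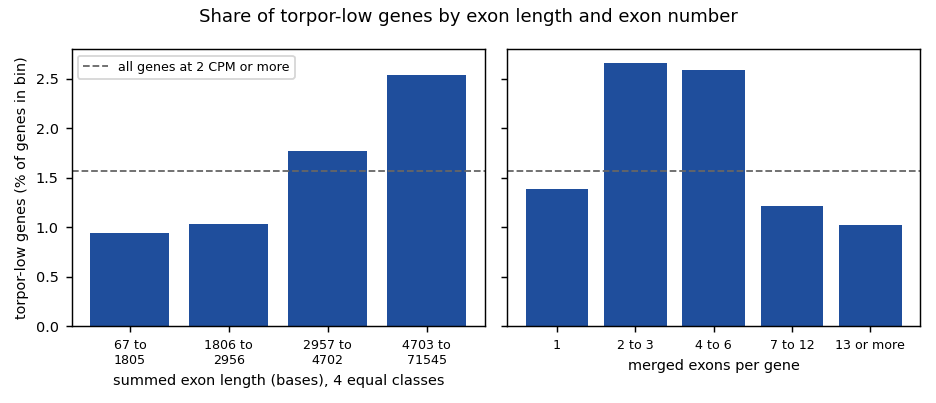
Bars give the torpor-low genes as a percent of genes past 2 CPM in each of 4 equal classes of summed exon length (left) and each class of merged exon number (right); the dashed line is 1.57%. The share is 0.948% in the shortest class and 2.54% in the longest, and it is 2.67% at 2 to 3 exons and 1.02% at 13 or more.

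The length difference was present at each level of expression. In the 4 classes of genes by level, from low to high, members had median exon lengths of 4040, 4359, 3424.5 and 3587 bases, against 3106, 3513, 3044 and 2198 bases for the other genes of that class. The highest class holds only 5 members. Under the same thresholds, the 88 genes highest in torpor only had a median of 2331.5 exon bases and 4 exons. The 48 lowest in LP only had 2901 bases and 6 exons, the 31 lowest in IBE only had 2236 bases and 6 exons, and the 52 lowest in SP refractory only had 2159 bases and 7 exons. Not all sets were shorter than the members: the 41 genes highest in SP refractory only had 4410 bases and 9 exons and the 5 highest in IBE only had 4968 bases and 14 exons, while the 53 highest in SP late pre-hib only had 3540 bases and 7 exons. These are descriptions of annotated gene models without a test. The transcripts in use in these cells, and their untranslated ends, were not analysed here.

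Counting ignored strand, so overlapping genes need care. Of the 206 genes, 61 overlapped the span of another gene and 47 overlapped one on the opposite strand, 23 of these with a partner of at least 2 CPM. For the 25 such pairs the partner's torpid median was 79.6% to 186% of its median in the 30 others (median 101%). Kctd21 overlaps Usp35, at 9.66 CPM in torpor and 10.6 CPM in the 30 others, and LOC121132879, at 9.41 CPM in torpor and 9.21 CPM in the others. Zc3h12c overlaps Rdx, at 95.9 CPM in torpor and 90.7 CPM in the others. Ankrd37, Mlx, Znf526, Leng1 and Fbxo33 also overlap an expressed gene on the other strand. The partner furthest above its level in the other libraries was LOC121139363 at Fbxo33, with 5.52 CPM in torpor and 2.97 CPM in the others.

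Members were spread over 49 contigs of the assembly, and 8 pairs of neighbouring members lay under 100000 bases apart. Tnfaip8l2 and Lysmd1 lie 3 bases apart on opposite strands, so that reads at their ends may be assigned to either. Znf526 and Dedd2 are 171 bases apart, Fzd5 and Ccnyl1 5476 bases, and Cenpl and Rc3h1 96476 bases.

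The 5 groups without torpor were then compared with each other, a contrast the rule did not use directly. The rule did put a floor under every one of these groups, so similar levels in them are in part ensured by the choice. The highest group median was under 1.5 times the lowest in 187 of the 206 genes, and 2 times or more in 5. In edgeR's quasi-likelihood test with Benjamini-Hochberg adjustment over 17926 genes, 5 members (2.43%) differed among the 5 groups, where 7.48% of all genes did. They were Penk (adjusted p = 0.000509), Leng1 (0.0247), Nfkbiz (0.0289), Fam43a (0.0389) and Iqcc (0.0400). When 1 library was left out, Iqcc lost this call in 15 of 36 fits (highest adjusted p = 0.0890, without IBE 4) and Fam43a in 14 (0.0868, without SP refractory 2). Leng1 lost it in 1 fit (0.0604, without SP pre-hib 5), and Nfkbiz in 1 (0.0782, without SP refractory 4). Iqcc also lost it in 7 of the 8 other alternatives. Without the 3 libraries rich in ribosomal RNA, 17 members (8.25%) differed, where 12.3% of all genes did. The replicates are separate brains.

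Whether the genes kept a difference between bouts was examined in animals 23 h into euthermia. For IBE minus SP late pre-hib, 0 members passed in edgeR (0.0% of all genes did), with 6 members at an unadjusted p under 0.05. The median log2 fold change of the members was 0.04 (quartiles -0.07 and 0.17), against 0.01 over all genes tested, and 3 members were beyond 1.5-fold. DESeq2 called 0 members (0.188% of all genes) and limma voom 0 (0% of all genes). In edgeR without the 3 libraries rich in ribosomal RNA, 0 members passed, where 0.855% of all genes did. In that fit 16 members had an unadjusted p under 0.05. The share of all genes at that unadjusted level was not counted, so nothing is read from such counts here or below. In 111 of the 206 genes (53.9%) all IBE animals were above all torpid animals, as in 3.37% of genes past the floor, but this contrast was part of the choice and nothing is read from it. Without the requirement on IBE, 252 genes would have met the rule, of which 42 (16.7%) failed in IBE. The corresponding failures were 17 for LP, 37 for SP pre-hib, 18 for SP late pre-hib and 31 for SP refractory. For SP late pre-hib minus SP pre-hib 0 members passed as well (0.0% of all genes), with 6 members at an unadjusted p under 0.05. DESeq2 called 0 members there (0.0228% of all genes) and limma voom 0 (0% of all genes).

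The refractory state differed from IBE in 5 members (2.43%, against 3.5% of all genes), 4 higher (2.04% of all genes were) and 1 lower (1.47%). Penk, the precursor of enkephalin peptides, had a median of 13.3 CPM in SP refractory animals (5.04 to 20.99) and 5.70 CPM in IBE animals (3.57 to 6.45), and rose with a log2 fold change of 1.35 ± 0.25 (SE; adjusted p = 0.00487). Its lowest refractory library, SP refractory 4, overlapped the IBE animals. In the other groups Penk had medians of 3.46 CPM in SP torpid, 11.3 CPM in LP, 5.76 CPM in SP pre-hib and 6.07 CPM in SP late pre-hib animals. The 2 groups with the highest medians were thus SP refractory and LP, and Penk in SP refractory minus LP did not pass (log2 0.33 ± 0.25; adjusted p = 0.598).

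Nfkbiz had 3.33 to 7.94 CPM (median 4.59) in SP refractory animals, against 1.58 to 2.93 CPM (median 2.25) in IBE animals, without overlap. Its log2 fold change was 1.26 ± 0.34 (adjusted p = 0.0350). The highest value came from SP refractory 4, and without that library the adjusted p of Nfkbiz was 0.124. Fam43a had a median of 11.2 CPM in SP refractory animals and 7.05 CPM in IBE animals, with a log2 fold change of 0.69 ± 0.19 (adjusted p = 0.0360). Ccnd1, which encodes cyclin D1 of the G1 phase, had medians of 11.1 CPM in SP refractory and 7.28 CPM in IBE animals and a log2 fold change of 0.66 ± 0.19 (adjusted p = 0.0458), and its call was lost in 16 of 36 fits that leave out 1 library. Iqcc was the 1 lower gene, with 31.8 CPM in SP refractory animals against 37.9 CPM in IBE animals (log2 -0.33 ± 0.08; adjusted p = 0.0250). Calls of Nfkbiz, Fam43a, Ccnd1 and Iqcc were also lost without single IBE libraries. Highest adjusted p values were 0.0967 for Fam43a without IBE 4, 0.0976 for Ccnd1 without IBE 3 and 0.0639 for Iqcc without IBE 4. Nfkbiz lost its call in 4 of the 36 fits, and also with limma voom (adjusted p = 0.110) and the replicate block (0.0714). Without SP refractory 4, 2 members passed, both higher (0.971%, against 1.27% of all genes). Without the 3 libraries rich in ribosomal RNA, 4 members passed, all higher (1.94%, against 3.02% of all genes). The fall of Iqcc was thus not called in either fit.

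**Figure D5:**
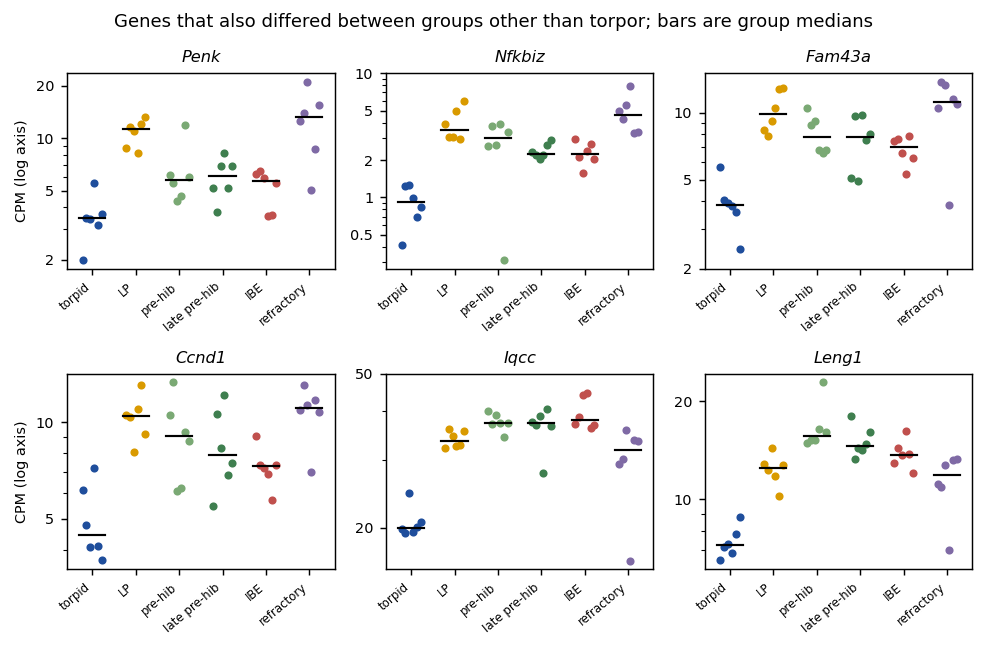
CPM on a log axis in every animal for 6 torpor-low genes that also passed a test between groups other than torpor, with group medians as bars. Penk, Nfkbiz, Fam43a and Ccnd1 have higher medians in SP refractory than in IBE animals, Iqcc has a lower one, and Leng1 has its highest median in SP pre-hib animals.

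Early in short days 1 member passed for SP pre-hib minus LP (0.485%, against 2.29% of all genes), and it was higher, as were 1.61% of all genes. Leng1 had 14.9 to 22.8 CPM (median 15.7) in SP pre-hib animals and 10.2 to 14.4 CPM (median 12.5) in LP animals, a rise of 0.48 ± 0.12 on the log2 scale (adjusted p = 0.0236). The adjusted p was 0.118 without SP pre-hib 5. Without the 3 libraries rich in ribosomal RNA, 10 members passed this comparison, 4 higher and 6 lower in SP pre-hib animals, where 6.37% of all genes passed. For SP refractory minus LP 0 members passed (0.329% of all genes did), with 14 members at an unadjusted p under 0.05. DESeq2 called 1 member there (0.485%, against 1.78% of all genes) and limma voom 0 (0.257% of all genes).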

How the data were processed

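Raw read counts per gene were deposited by the authors, 1 table per animal, and were used as deposited. Per the file headers, fragments were counted with featureCounts 2.0.1 over exons of the RefSeq annotation of assembly BCM_Maur_2.0, without regard to strand. Alignment settings were not stated in the labels or headers. Of the 32340 genes, 31895 matched the RefSeq gene table, and all 206 members did. Sequences were not used here.

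CPM were computed from the library totals and the member rule was applied to group medians. The members and lists were chosen with earlier results of these data known. The comparisons among the 5 groups without torpor came from 1 model of all 36 libraries, with filterByExpr (17926 genes), TMM factors and the robust quasi-likelihood test of edgeR 4.0.16 in R 4.3.3, with genes called below an adjusted p of 0.05. Alternatives used DESeq2 1.42.0, limma 3.58.1 (voom), RLE factors, other filters, the replicate number as a block and leave-one-out fits. The fit without the 3 libraries above 5% ribosomal RNA was one of them. Counts of libraries without overlap over 27 libraries, and the rule with each group not required in turn, were added after seeing the data.

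Genes named were the 25 with the largest ratio, the 5 with the highest torpid median, up to 4 of each list with 3 or more members, up to 4 per test among those that passed, and 3 on each side of the threshold, of which 1 is not reported here. Genes named beyond these (among them Tut4, Dicer1, Lifr, Irs1, Rgs2, Bcl2, Maml1 and Ccnd1) were chosen after their values were seen. Python 3.11.15 with pandas 2.3.3 was used for tables and matplotlib 3.10.9 for figures. The member rule and the edgeR fit were tested on simulated data.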

Additional observations from a re-analysis of the deposited data

Results flagged for a closer look

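The values below belong to 1 library that lay far from the other 5 of its group, by the gap to its nearest neighbour relative to the group's range. Chance alone sets apart about 1 in 20 groups. Over the 47 named genes and 6 groups, 44 of 282 groups had such a library, and 35 of these values were in SP refractory 4, SP pre-hib 5 or IBE 6, the libraries rich in ribosomal RNA. Whether that RNA has a part in them was not tested. Only 16 values are listed below: those in the torpid group and, for a few genes picked for this list, those in the other groups. Ccnd1, Borcs5 and the LOC genes listed are not among the 47.

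In the torpid group, Hes5 was highest in torpid 4, at 27.3 CPM. Socs6, Zc3h12b and Iqcc were highest in torpid 3, at 15.2, 10.9 and 24.6 CPM. Ankrd37 was lowest in torpid 6, at 5.44 CPM, and Borcs5 highest in torpid 2, at 15.3 CPM.

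Outside torpor, SP pre-hib 5 was lowest of its group for Nfkbiz, at 0.314 CPM, and highest for Leng1, at 22.8 CPM, and Penk, at 11.9 CPM. SP refractory 4 was lowest for Leng1 (6.98 CPM), Iqcc (16.5 CPM), Fam43a (3.88 CPM) and Ccnd1 (6.98 CPM), and highest for LOC121141272, at 325 CPM. SP late pre-hib 4 was lowest for Iqcc, at 27.7 CPM, and highest for LOC121144049, at 716 CPM.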

How the results depend on the processing

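The set held 181 genes under TMM scaling (170 of the 206 members shared), 187 under RLE scaling (176 shared), 206 with group means in place of medians (152 shared, 73.8%), 236 and 165 with a floor of 1 and 5 CPM, and 231 or 200 with ribosomal and mitochondrial genes left out of the total or the 3 libraries above 5% ribosomal RNA left out (206 and 187 shared). It held 192 to 237 when 1 library was left out. At 2-fold it held 18. Replicate numbers did not pair the animals: same-numbered libraries correlated with a mean of -0.003 (-0.34 to 0.48 over 90 pairs). With the replicate block, 1 member differed among the 5 groups, 2 in SP refractory minus IBE and 2 in SP pre-hib minus LP. These were 0.485%, 0.971% and 0.971% of members, against 4.48%, 1.22% and 2.00% of all genes. DESeq2 called 15, 9 and 2 members in those comparisons (7.28%, 4.37% and 0.971%, against 12.5%, 5.54% and 3.63% of all genes), and 1 in SP refractory minus LP (0.485%, against 1.78%). Limma voom called 4 members among the 5 groups (1.94%, against 5.42% of all genes). It called 2 in SP refractory minus IBE (0.971%, against 1.03%) and 4 in SP pre-hib minus LP (1.94%, against 2.71%). Without the 3 libraries 17 differed among the 5 groups (8.25%, against 12.3% of all genes) and 10 in SP pre-hib minus LP (4.85%, against 6.37%). That fit called 4 in SP refractory minus IBE (1.94%, against 3.02%). Without a count filter 0 members passed in SP pre-hib minus LP, where 0.837% of all genes did. Leaving out 1 library gave 3 to 9 members among the 5 groups, where 6.38% to 9.22% of all genes differed. It gave 1 to 8 in SP refractory minus IBE (1.22% to 5.55% of all genes) and 0 to 4 in SP pre-hib minus LP (1.45% to 4.10%). The other comparisons gave 0 members in each of these fits. Of all genes, 0.127% to 2.28% passed there in SP refractory minus LP. At most 0.138% passed in IBE minus SP late pre-hib and 0.00551% in SP late pre-hib minus SP pre-hib. Penk passed among the 5 groups and in SP refractory minus IBE in all 36 of these fits and the 8 alternatives. Median exon length over the background was 1.36, 1.46 against all genes tested and 1.49 at 2-fold. Exon number gave 0.600, then 0.750 and 0.700, and gene span 0.912, then 1.09 (reversed) and 0.580. Non-overlap with all 30 libraries held for 43 members (20.9%, against 0.566% of genes past the floor). With 27 it held for 103 (50%, against 1.85%). The same contrast chose the genes. The causes were not tested. Promoter motifs and protein lengths were planned and not run. CPM are shares of a library, and low counts limit the 20 members under 2 CPM in torpor.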

Other observations

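A few members varied widely within groups. LOC121144049 had 16.7 to 145 CPM in torpid animals, against 698 to 1468 CPM in LP, 40.6 to 1116 CPM in SP pre-hib, 34.5 to 716 CPM in SP late pre-hib, 19.0 to 2900 CPM in IBE and 282 to 2538 CPM in SP refractory animals. LOC121141272 moved with it, at 1.74 to 16.7 CPM in torpid animals, 71.9 to 146 CPM in LP and 2.27 to 158 CPM in IBE animals. Across the 36 libraries their log2 CPM had a Pearson r of 0.99, a description of libraries that share group and animal. The genes lie on different contigs, and LOC121144049 has the highest level per kilobase of all 206 genes, at 1095 CPM per kilobase in the 30 other libraries. Borcs5 ranged from 1.48 to 15.3 CPM in torpid animals and from 2.04 to 14.5 CPM in IBE animals, a spread of over 5 times inside both groups.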
